A study of Mus musculus with 4 samples.

Results

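The cells described here are those with at least 1 UMI of Nr5a1 in the E10.5 library of XY mouse gonads, 72 of the 3837 cells of that library that passed the limits on cell quality and of 10987 such cells in 4 libraries. They were chosen by this UMI, so the Nr5a1 level is a property of the choice and not a result. A UMI (unique molecular identifier) stands for 1 captured mRNA molecule in single-cell RNA sequencing (scRNA-seq). They were set against 283 cells of the same library that were selected on a UMI of Upk3b and had none of Nr5a1, and against 3482 cells with neither gene.

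The study compared gonads with somatic cells that were induced from embryonic stem cells (ESCs). Gonads of XY embryos of the ICR strain were read with version 2 of the 3′ kit at E10.5, with surrounding dorsal mesenchyme left on, and on the next embryonic days, E11.5 and E12.5, after the mesonephros was dissected away. The D6 library held cells of XY ESC aggregates from the line N271S9C. These cells were enriched by magnetic sorting for the Nr5a1 reporter and read with version 3 of the kit. The sample label gives the strain as C57BL/6J and the transgenes as Nr5a1-hCD27a and Sox9-2A-CGFP. The paper spells the former Nr5a1-hCD271. It traces the line to C57BL/6J males with this transgene and females of another strain, so the background was mixed. Each stage was 1 library and the number of pooled embryos was not given in the sources used here. All differences are therefore between cells of 1 library, no test was possible, and all intervals (95%, exact Poisson for levels and exact binomial for shares) cover counting error only.

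Nr5a1 (SF-1, Ad4BP) encodes a nuclear receptor that is needed for the formation of gonads and adrenal glands and that later drives steroidogenic genes. In the mouse, the gonad arises from the coelomic epithelium, the cell layer that lines the body cavity, as it thickens on the ventral face of the mesonephros. Gata4, Wt1, Lhx9, and Emx2 encode transcription factors that act in this layer, and loss of any of them stops gonad formation early. Upk3b encodes a uroplakin that is used as a marker of the mesothelium, the mature form of this lining.

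The 72 cells held 101 UMIs of Nr5a1, or 1 UMI in 52 cells, 2 in 14 cells, 3 in 3 cells, and 4 in 3 cells. Over all cells of the library this made a share of 1.88% (1.47 to 2.36%) and a level of 3.11 CPM (UMIs scaled to the same total in every group; 2.53 to 3.78). The group stood close to the detection limit. Each cell was then thinned to 3000 UMIs, which left out 184 shallower cells, 1 of them Nr5a1-positive, and the expected share was 0.773%, a level near that of 1 UMI. The share was 0.546% (7 cells) in the shallowest of 3 depth classes of cells, 2.51% (32 cells) in the next, and 2.58% (33 cells) in the deepest. The selected cells were also the deepest of the 3 groups, with a median of 9411.5 UMIs against 9188 in the Upk3b-positive cells and 8083 in cells with neither gene. The limits on detected genes passed between 3977 genes in the highest Nr5a1-positive cell inside and 4009 in the lowest outside, and between 1274 inside and 725 outside at the lower end.

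Cells of types that should lack Nr5a1 gave no sign of free Nr5a1 RNA at this depth. None of 1094 cells that carried UMIs of at least 3 markers of another class had an Nr5a1 UMI, which allows a share of up to 0.274%, at a median of 9023.5 UMIs. Among them were 73 endothelial cells with a median of 10238 UMIs, and 0 of 73 allows up to 4.11%. By contrast, free hemoglobin RNA was present in all groups. Hbb-y, an embryonic globin, had a UMI in 27.8% of the Nr5a1-positive cells, in 26.5% of the Upk3b-positive cells, and in 26.7% of cells with neither gene, and is read here as background. Nr6a1, the next gene upstream of Nr5a1 on the same strand, had 2 UMIs in the 72 cells. Nr5a1 itself lies at chr2:38692656-38714542 on the minus strand (GRCm38) and Nr6a1 at chr2:38723370-38927688. Of the 72 barcodes, 1 also occurred among the cells of the E11.5 library, whereas 12 of all E10.5 barcodes occurred there, 19 at E12.5, and 0 at D6. None of the 72 cells was among the 132 cells with the highest doublet scores, which made 2.83% of the Upk3b-positive cells and 3.56% of cells with neither gene.

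Markers of most other cell types were scarce in the Nr5a1-positive cells, and those of nephric epithelium, sclerotome, and muscle were present at low levels. Of 8 endothelial markers, 6 had no UMI, Pecam1, Cdh5, and Kdr among them, and Egfl7, which also hosts a microRNA, gave 66.3 of the summed 67.7 CPM. Egfl7 was at 49.3 CPM in the Upk3b-positive cells and at 41.0 CPM in cells with neither gene. Of 7 markers each, 5 erythroid, 6 macrophage, and 5 germ cell markers had no UMI. The 6 markers of splanchnic mesenchyme, the tissue around the gut, summed to 5.64 CPM against 260 CPM in the Upk3b-positive cells and 204 CPM in cells with neither gene. The 7 nephric markers summed to 38.1 CPM against 47.7 and 39.1 CPM, with Pax8 at 19.8 and Gata3 at 15.5 CPM, and Ret, Wnt9b, and Cdh16 without a UMI. The paper also uses Pax8 to mark a cluster of supporting cells seen from E10.5, which it proposes to be supporting-like lineage cells. The 6 markers of sclerotome summed to 38.1 CPM against 16.03 and 226 CPM, with Foxc2 at 16.9 and Meox1 at 15.5 CPM, and Pax1, Pax9, and Nkx3-2 without a UMI. The 6 myogenic markers summed to 21.2 CPM against 8.21 and 285 CPM. The part of these RNAs in the results was not tested. Of the Upk3b-positive cells, 44 (15.5%) carried at least 3 of the 6 splanchnic markers, and of cells with neither gene, 30.1% carried markers of some class. The ratios were also computed without these cells, and values that then came under 2-fold are given beside the genes.

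Nr5a1 and Upk3b were found together more often than their shares in the library. A Upk3b UMI was present in 28 of the 72 cells (38.9%, 27.6 to 51.1%) against 8.11% of all cells. Seen the other way, 9.003% of 311 Upk3b-positive cells and 1.25% of 3526 Upk3b-negative cells had an Nr5a1 UMI. Among the regulators of the primordium, this share was computed only for cells with Lhx9, Wt1, Emx2, Gata4, or Tcf21, and was highest with Lhx9. The shares with Wt1, Emx2, Gata4, and Tcf21 had intervals that overlapped that of the Upk3b-positive cells (6.07 to 12.75%). Nr5a1 was detected in 51 of 176 cells with an Lhx9 UMI (28.98%, 22.4 to 36.3%) but in 62 of 869 cells with a Wt1 UMI (7.14%), in 45 of 547 cells with Emx2 (8.23%), in 28 of 236 cells with Gata4 (11.9%), and in 35 of 434 cells with Tcf21 (8.07%). Amhr2, which encodes the receptor of anti-Müllerian hormone, gave 39 of 100 cells (39%, 29.4 to 49.3%). With both Lhx9 and Amhr2 the share was 29 of 48 cells (60.4%, 45.3 to 74.2%), with Lhx9 but not Amhr2 it was 22 of 128 (17.2%), and with Amhr2 but not Lhx9 it was 10 of 52 (19.2%). The median depth of these sets of cells lay between 7372 and 9808 UMIs.

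For gene levels, the UMIs of all cells of a group were added and expressed in CPM of the group total. A gene was counted as higher or lower when its log2 ratio, with 10 CPM added to each side, was at least 1 (2-fold), among genes with at least 50 CPM in 1 or both groups. A gene that reached 50 CPM in only 1 of the groups compared could be counted only as higher in that group. Against cells with neither gene, 97 of 3272 genes were higher in the Nr5a1-positive cells (2.96%) and 60 were lower (1.83%). Against the Upk3b-positive cells, 52 of 3304 were higher (1.57%) and 35 were lower (1.06%). The median log2 ratio of all genes was 0.04 in the former and −0.01 in the latter. The Nr5a1-positive cells are shared by both comparisons, and their values are therefore given side by side.

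**Figure D1:**
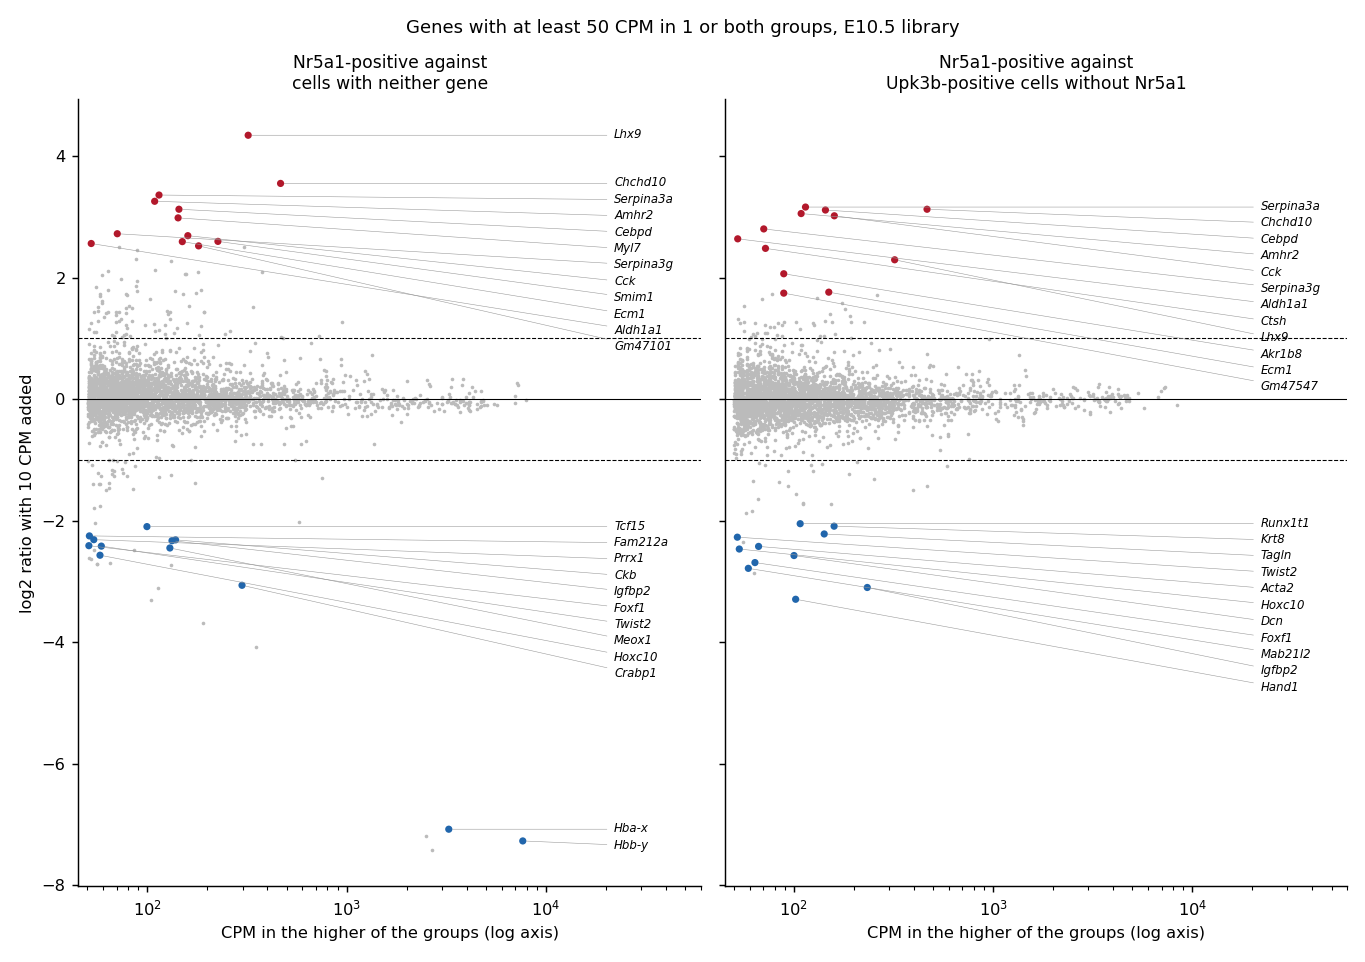
Log2 ratio (with 10 CPM added) of each gene with at least 50 CPM in 1 or both groups, against its CPM in the higher group (log axis), for the 2 comparisons of the 72 Nr5a1-positive cells. Each point is a gene, colored points are the named genes (up to 12 per direction), dashed lines mark 2-fold, and gray points beyond them were not among those named or had a UMI in under 10% of the cells of the higher group. Lhx9 leads on the left at 4.34 and Serpina3a on the right at 3.16.

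Of the transcription factors of the early gonad, 5 were higher in the Nr5a1-positive cells than in cells with neither gene, and of these Lhx9 and Tcf21 were also higher than in the Upk3b-positive cells. Lhx9, a LIM homeobox factor, was at 320.3 CPM (280 to 365), with 227 UMIs in 51 of the 72 cells. Its level was 57.5 CPM in the Upk3b-positive cells and 6.29 CPM in cells with neither gene, a log2 ratio of 2.29 (2.00 to 2.59) and 4.34 (4.06 to 4.62). The order of the 3 groups was thus Nr5a1-positive, Upk3b-positive, and neither, without overlap of the intervals. Wt1, a zinc finger factor that is also expressed in the kidney lineage, followed the same order at 305, 168, and 45.7 CPM, and Emx2, a homeobox factor, at 157, 100.5, and 29.9 CPM. Gata4, which acts upstream of Nr5a1 in the thickening epithelium, was at 63.5, 32.1, and 7.04 CPM. The differences of Wt1, Emx2, and Gata4 from the Upk3b-positive cells, with log2 ratios of 0.82, 0.59, and 0.80, stayed under 2-fold. Tcf21, a basic helix-loop-helix factor, was at 87.5 CPM against 32.1 and 16.9 CPM, a log2 ratio of 1.21 (0.77 to 1.66) to the Upk3b-positive cells. Tcf21 reached 50 CPM only in the Nr5a1-positive cells, which fixes its direction in both comparisons.

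Other regulators of the list were level or scarce. Cited2 (195, 132, and 172 CPM), which encodes a cofactor with wide expression, was within 2-fold in both comparisons. Gadd45g, which acts upstream of Sry through a kinase cascade, was lower than in cells with neither gene, at 19.8 against 52.9 CPM (log2 ratio −1.08), but −0.60 without the cells that carried markers of another class and −0.52 in the Nr5a1-positive cells with Upk3b. Gadd45g was under 50 CPM in the Nr5a1-positive cells, which fixes its direction. Nr0b1, a nuclear receptor of gonad and adrenal gland, was at 14.1 CPM (6.77 to 25.9) against 1.96 and 0.513 CPM, which is under the 50 CPM needed to be counted. Of the 19 regulators, 8 were abundant enough to be counted in each comparison. Against cells with neither gene, Lhx9, Wt1, Emx2, Gata4, and Tcf21 reached 50 CPM only in the Nr5a1-positive cells, so that their number is no measure of the list as a whole.

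**Figure D2:**
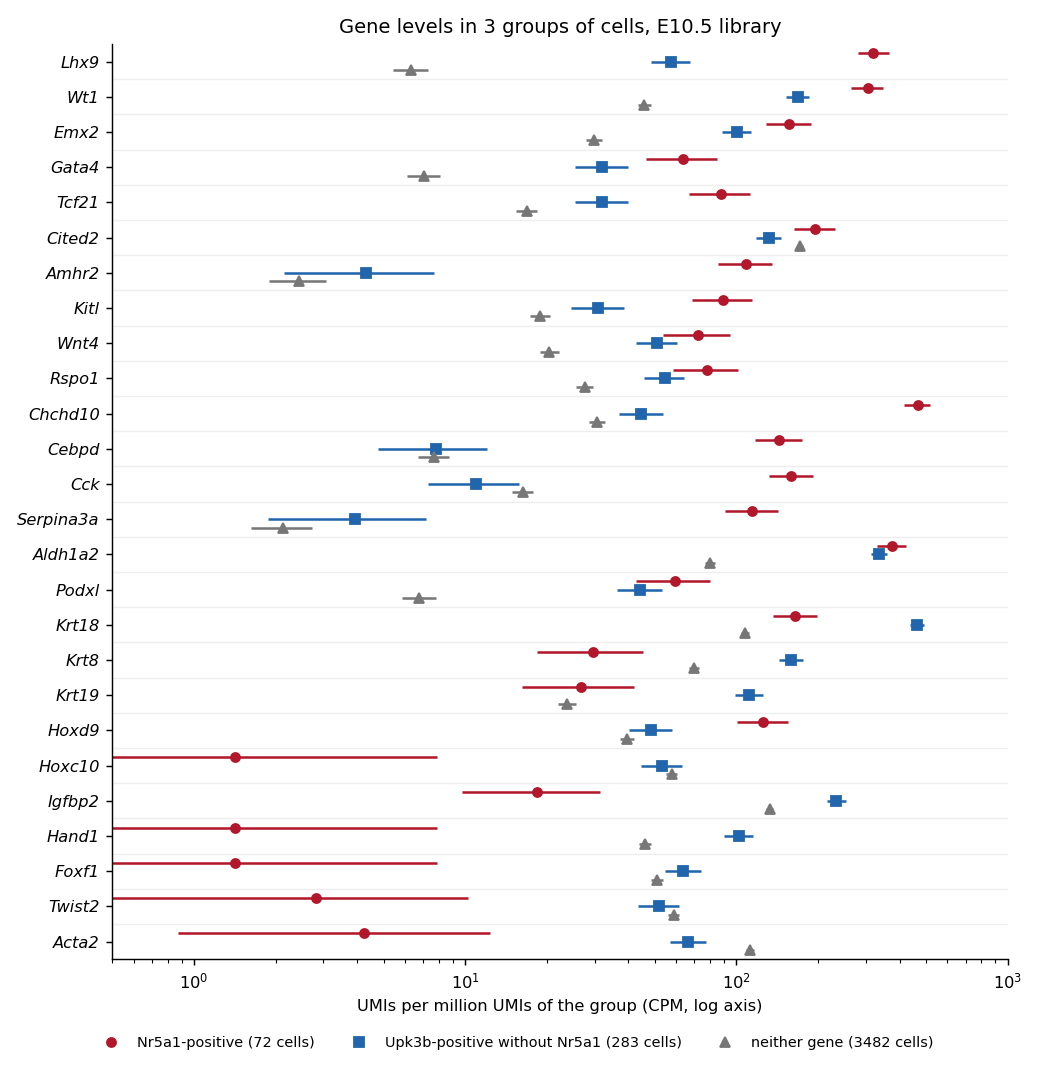
Level of 26 genes in 3 groups of cells of the E10.5 library, in CPM (log axis). Points are the levels of the Nr5a1-positive (red circles), Upk3b-positive (blue squares), and remaining cells (gray triangles), and lines are 95% Poisson intervals, which end at the left edge where they run below 0.5 CPM. Lhx9 stands at 320.3, 57.5, and 6.29 CPM, whereas Hand1 stands at 1.41, 102, and 46.0 CPM.

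Of 14 genes of the coelomic epithelium besides Upk3b, 5 were abundant enough to be tested against the Upk3b-positive cells. Of these, 0 were higher, 3 were lower, and 2 were within 2-fold. After thinning, a median of 1.58 of the 14 genes was expected per Nr5a1-positive cell. It was 2.14 in the Upk3b-positive cells and 0.277 in cells with neither gene. The more abundant genes fell into 2 kinds. Aldh1a2, which makes retinoic acid, was at 374 CPM in the Nr5a1-positive cells and 335 CPM in the Upk3b-positive cells, against 79.99 CPM in cells with neither gene. Podxl, an apical sialomucin, was at 59.3, 44.2, and 6.77 CPM. Lrrn4, a mesothelial membrane protein, was at 39.5, 31.7, and 3.66 CPM, too low to be counted. In these genes, the Nr5a1-positive cells and the Upk3b-positive cells differed by less than 2-fold. The keratins of simple epithelium were different. Krt18 was at 165 CPM (137 to 198) against 464 CPM in the Upk3b-positive cells, Krt8 at 29.6 against 159 CPM, and Krt19 at 26.8 against 111 CPM, with log2 ratios of −1.44, −2.09, and −1.72. In this comparison, Krt8 and Krt19 reached 50 CPM only in the Upk3b-positive cells, which fixes their direction. Krt7 was at 1.41 CPM and too low to be counted. In cells with neither gene, Krt8 was at 70 CPM. Against cells with neither gene, Krt18 and Krt19 were at log2 ratios of 0.58 and 0.12, and Krt8 was at −1.01, a call that was lost under 5 other settings, with values from −0.40 to −0.96. Krt8 was under 50 CPM in the Nr5a1-positive cells here too, which fixes its direction. Msln, which encodes the mesothelial surface protein mesothelin, had no UMI in the 72 cells, which allows up to 4.23 CPM, nor in the Upk3b-positive cells. Of the rest of the list, Upk1b had no UMI in the 72 cells and Gpm6a was at 2.82 CPM. Crb2 had UMIs in 15 of the cells, Tmem151a in 14, Tm4sf5 in 11, and Bnc1 in 7.

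Of 19 genes of sex differentiation, Amhr2, Kitl, Rspo1, and Wnt4 reached 50 CPM in comparison with cells with neither gene, each only through the Nr5a1-positive cells, which fixes their direction. Amhr2 and Kitl were also at least 2-fold higher than in the Upk3b-positive cells. In that comparison too they reached 50 CPM only in the Nr5a1-positive cells, so this direction was fixed as well. Amhr2 was at 109 CPM (85.8 to 136) with 77 UMIs in 39 cells, against 4.30 CPM (2.15 to 7.70) and 2.43 CPM, which made log2 ratios of 3.05 (2.24 to 4.05) and 3.26 (2.82 to 3.71). No cell gave more than 7.79% of its UMIs. Kitl, the ligand through which somatic cells support germ cells, was at 88.9 CPM against 30.9 and 18.9 CPM. Rspo1, an enhancer of WNT signaling in the ovary, was at 77.6, 54.4, and 27.6 CPM, with a log2 ratio of 1.22 to cells with neither gene that was 0.95 without the cells carrying markers of another class. Wnt4, the ligand of the same pathway, was at 71.97, 50.8, and 20.4 CPM, and its level came almost wholly from Nr5a1-positive cells without Upk3b, as described below. Genes of the Sertoli cell program were scarce. Sox9 was at 25.4, 16.8, and 43.7 CPM, Sox8, Amh, Dhh, and Ptgds had no UMI in the 72 cells, and neither did Foxl2 of the granulosa cell program. Sry had no UMI in any of the 3 groups. Inhbb, an activin subunit, had 8 UMIs (11.3 CPM) against 0 in the Upk3b-positive cells, at least 9.62-fold higher when that group is given 3 counts.

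The promoter of Amhr2 is printed because it was the one promoter among the leading genes with the extended motif CAAGGTCA that is known for binding by Nr5a1. The motif was searched on both strands in 300 bases (250 before and 50 after the start of transcription) as given by RefSeq for GRCm38.p6. It was found in 1 of 11 genes that were among the 12 highest in either comparison and had an entry, of 15 such genes, and in 512 of 32851 promoters (1.56%). Cebpd, Gm47101, Ctsh, and Gm47547 had no entry. The sequence is that of chr15:102445117-102445416 on the plus strand, capitals mark the motif, which begins 232 bases before the start site on the same strand, and a match of letters is a description and not a binding site.
Amhr2: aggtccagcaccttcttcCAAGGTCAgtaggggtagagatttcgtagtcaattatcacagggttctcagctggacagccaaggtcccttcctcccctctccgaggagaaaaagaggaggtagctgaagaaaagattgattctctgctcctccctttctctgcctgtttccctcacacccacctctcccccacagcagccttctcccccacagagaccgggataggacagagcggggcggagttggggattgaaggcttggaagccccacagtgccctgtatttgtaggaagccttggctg
The data contain RNA levels and no binding, and no inference is drawn from the match.

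Several of the genes with the largest ratios were in none of the lists. Chchd10, a protein of the mitochondrial intermembrane space, had 330 UMIs in 55 of the 72 cells and was at 466 CPM (417 to 519) against 44.6 and 30.6 CPM, with log2 ratios of 3.12 and 3.55. Cebpd, a leucine zipper factor, was at 144 CPM against 7.82 and 7.66 CPM, with UMIs in 35 cells. Cck, the peptide hormone cholecystokinin, was at 159.5 CPM against 10.9 and 16.3 CPM. In these 3 genes the Upk3b-positive cells resembled the cells with neither gene, with differences under 2-fold between them by level. Chchd10, Cebpd, and Cck reached 50 CPM only in the Nr5a1-positive cells, which fixes their direction in both comparisons. Other leading genes had graded levels. The direction of Ecm1 was fixed in the same way, and that of Smim1 and Myl7 only against cells with neither gene. Ecm1, a secreted matrix protein, was at 150, 37.1, and 16.5 CPM, Smim1, a small membrane protein, at 226, 88.4, and 29.03 CPM, and Myl7, a myosin light chain of the atrium, at 142, 52.8, and 9.30 CPM.

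Serpina3a (114 CPM against 3.91 and 2.12) and Serpina3g (70.6 CPM against 1.56 and 2.22), which encode inhibitors of serine proteases, belong to a cluster of near-identical copies on chromosome 12, so that reads may be split between members and the values are uncertain. A single cell gave 17.3% of the Serpina3a UMIs and 20.0% of those of Serpina3g. Aldh1a1, another enzyme of retinoic acid synthesis, had 37 UMIs in 12 cells, 27.0% of them in 1 cell, and none in the Upk3b-positive cells. It was at least 44.5-fold higher when that group is given 3 counts. Ctsh, the lysosomal protease cathepsin H, was at 71.97 CPM against 4.69 and 4.41 CPM, and Akr1b8, an aldo-keto reductase, at 88.9 CPM against 13.7 and 15.9 CPM. Gm47101, annotated as a long intergenic RNA at chr10:102435269-102435543 on the plus strand, was at 181, 58.3, and 23.2 CPM. Gm47547, annotated as an antisense RNA at chr14:41053653-41061614 on the plus strand, was at 88.9, 19.6, and 7.97 CPM, and its reads and those of a partner on the other strand may be mixed, since use of strand was not given in the sources used here. Serpina3a, Serpina3g, Aldh1a1, Ctsh, Akr1b8, and Gm47547 reached 50 CPM only in the Nr5a1-positive cells, which fixes their direction in both comparisons. For Gm47101 this holds only against cells with neither gene. Among the coding genes, Lhx9 lies at chr1:138825186-138848577 on the minus strand, Chchd10 at chr10:75933130-75937747 on the plus strand, and Amhr2 at chr15:102445367-102454633 on the plus strand.

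Among the genes that were lower in the Nr5a1-positive cells were transcription factors of other mesoderm. Hand1 and Foxf1, factors of splanchnic and lateral mesoderm, had 1 UMI each in the 72 cells (1.41 CPM), against 102 and 63.7 CPM in the Upk3b-positive cells, a log2 ratio of −3.30 (−3.48 to −2.64) and −2.69 (−2.88 to −2.04). Without the cells that carried markers of another class these ratios were −2.24 and −1.90. Mab21l2, a factor of the body wall and eye, had no UMI and was at 59.04 CPM in the Upk3b-positive cells, at least 13.9-fold higher there when the Nr5a1-positive cells are given 3 counts. Twist2, a mesenchymal factor, was at 2.82 against 52.0 CPM. Hand1, Foxf1, Mab21l2, and Twist2 reached 50 CPM in the Upk3b-positive cells but not in the Nr5a1-positive cells, which fixes their direction. The Nr5a1-positive cells were nearly free of these 4 transcripts.

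Igfbp2, a secreted binding protein of insulin-like growth factors, was at 18.4 CPM (9.77 to 31.4), against 233 CPM in the Upk3b-positive cells and 133 CPM in cells with neither gene, with log2 ratios of −3.10 and −2.33. Dcn, the proteoglycan decorin, was at 8.47 against 100.1 CPM, Runx1t1, a transcriptional corepressor, at 18.4 against 108 CPM, and the smooth muscle genes Acta2 and Tagln at 4.23 and 22.6 against 66.5 and 142 CPM in the Upk3b-positive cells. Without the cells that carried markers of another class, 29 genes in place of 35 were lower than in the Upk3b-positive cells.

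Against cells with neither gene, the globins were far lower, and those with a UMI in at least 10% of the latter cells were Hbb-y (39.5 against 7652 CPM) and Hba-x (14.1 against 3254 CPM). Of the UMIs of these genes in cells with neither gene, 99.4% and 99.5% were in 51 cells that carried erythroid markers. Without the cells that carried markers of another class, their log2 ratios moved from −7.27 and −7.08 to −0.18 and −0.17. Crabp1, a retinoic acid binding protein, was at 26.8 against 298 CPM, with 57.9% of its UMIs in the Nr5a1-positive cells from 1 cell. Meox1 and Tcf15, factors of the somites, were both at 15.5 CPM against 130 and 99.4 CPM, Prrx1 of limb mesenchyme was at 2.82 against 53.8 CPM, Ckb, the brain form of creatine kinase, at 19.8 against 138 CPM, and Fam212a, a kinase inhibitor that is named Inka1 in the annotation, at 2.82 against 51.1 CPM.

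Of the genes of steroidogenesis that Nr5a1 is known to drive later, several had no UMI and others were present at low levels. Of the 14 genes of the adrenal gland and steroidogenesis, Cyp21a1, Cyp17a1, Cyp11b1, Mrap, and Akr1b7 had no UMI in the 72 cells. Cyp11a1, the side chain cleavage enzyme, had 1 UMI, Star, which carries cholesterol into mitochondria, had 3 (4.23 CPM, 0.873 to 12.4), Hsd3b1 had 7 in 6 cells (9.88 CPM against 0.782 and 0.752), and Mc2r, the receptor of adrenocorticotropic hormone, had 7 in 7 cells (9.88 CPM against 1.17 and 2.77). Fdxr, the reductase that feeds electrons to mitochondrial P450 enzymes, was at 39.5 CPM (26.3 to 57.1) against 12.1 and 11.9 CPM, and its partner Fdx1 was at 74.8, 58.3, and 52.1 CPM. Scarb1, a receptor that takes up cholesterol, was at 29.6 CPM in 18 cells, against 18.4 and 12.8 CPM. Only Fdx1 and Dlk1 were abundant enough to be tested, and both were within 2-fold, with Dlk1, a membrane protein of the Notch ligand family, at 1108, 1419, and 890.5 CPM.

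The Hox genes, which record position along the body axis, differed in both directions. Of 40 Hox entries, 9 were tested against cells with neither gene. Hoxd9 was higher, at 126 CPM against 48.5 and 39.6 CPM (log2 ratios of 1.21 and 1.45), and its neighbor Hoxd8 was at 36.7 CPM (24.0 to 53.8) against 9.78 and 6.98 CPM, too low to be counted. Hoxc10, a gene of the posterior trunk, had 1 UMI (1.41 CPM) against 53.2 and 57.8 CPM. Hoxa5 was at 18.4 CPM against 62.2 and 58.4 CPM, Hoxa9 at 14.1 CPM against 65.7 and 53.4 CPM, and Hoxb4 at 5.64 CPM against 48.9 and 54.4 CPM. Hoxd9 reached 50 CPM only in the Nr5a1-positive cells, and Hoxc10, Hoxa5, Hoxa9, and Hoxb4 only outside them, which fixes their directions. Hoxa7, Hoxc6, Hoxc8, and Hoxc9 were within 2-fold in both comparisons. Within cluster a, Hoxa7 at 178 CPM thus stood beside Hoxa5 and Hoxa9 that were both lower than in the other groups.

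The signaling lists held few genes abundant enough to be tested. Of the BMP genes, Bmp4, which encodes a ligand, was at 39.5 CPM against 154 CPM in the Upk3b-positive cells (log2 ratio −1.73) and 61.3 CPM in cells with neither gene, whereas the targets Id1 (208, 232, and 163 CPM), Id2 (580, 434, and 358 CPM), and Id3 (940, 742, and 595 CPM) were within 2-fold. Of 4 WNT genes tested against cells with neither gene, Wnt4 and Rspo1, described above and counted through the Nr5a1-positive cells alone, were higher, and none of 4 was past 2-fold against the Upk3b-positive cells. Rspo3, an enhancer of WNT signaling, had no UMI and was at 28.5 and 25.5 CPM in the other groups, at least 6.74-fold and 6.02-fold higher there when the Nr5a1-positive cells are given 3 counts. The inhibitor Sfrp1 was at 323, 494, and 300 CPM, within 2-fold. Of the hedgehog and NOTCH genes, Gas1 and Smo, a coreceptor and the signal transducer, and Hes1, a NOTCH target, were tested and were within 2-fold, and Dhh, Shh, and Ihh, the ligands, had no UMI.

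In the list of interstitial and stromal genes, Acta2 was lower in both comparisons, with a log2 ratio to cells with neither gene of −3.11 that was −2.45 without the cells carrying markers of another class. Col1a1 and Dcn were lower than in the Upk3b-positive cells. Of the list of epithelium and mesenchyme, Twist1 was at 9.88 CPM against 34.4 and 57.7 CPM and lower than in cells with neither gene, whereas Vim (342, 466, and 417 CPM), Cdh2 (76.2, 85.6, and 65.2 CPM), and Fn1 (32.5, 59.4, and 54.2 CPM) were within 2-fold. All 13 of the cell cycle genes tested against the Upk3b-positive cells were within 2-fold, and Top2a, for example, was at 323, 295, and 276 CPM. Against cells with neither gene, 13 of 14 were within 2-fold and Cdkn1a, a cell cycle inhibitor, was lower (1.41 against 53.9 CPM), with a log2 ratio of −2.48 that was −0.80 without the cells carrying markers of another class. No nephric gene was abundant enough to be tested. Pax8, a factor of the nephric lineage that the paper also uses for supporting-like cells, was at 19.8 CPM (10.8 to 33.1), against 2.74 and 4.51 CPM. It had 14 UMIs in 8 cells, and 42.9% of them came from 1 cell.

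The 72 cells differed among themselves in how many of the early regulators they carried. Of Lhx9, Wt1, Emx2, and Gata4, all 4 had a UMI in 20 cells (27.8%), 3 in 23 cells, 2 in 13, 1 in 11, and none in 5 (6.94%). In the Upk3b-positive cells, 3.53% had all 4 and 23.0% had none, and in cells with neither gene 0.488% had all 4 and 72.2% had none. Of the 19 regulators, a median of 6 had a UMI per cell (4 and 3 in the other groups, and 3.19, 2.10, and 1.56 after thinning to 3000 UMIs). Lhx9 had a median of 4 UMIs in the 51 cells that had it and up to 17, Wt1 a median of 3 and up to 9, and Chchd10 a median of 5 and up to 23.

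**Figure D3:**
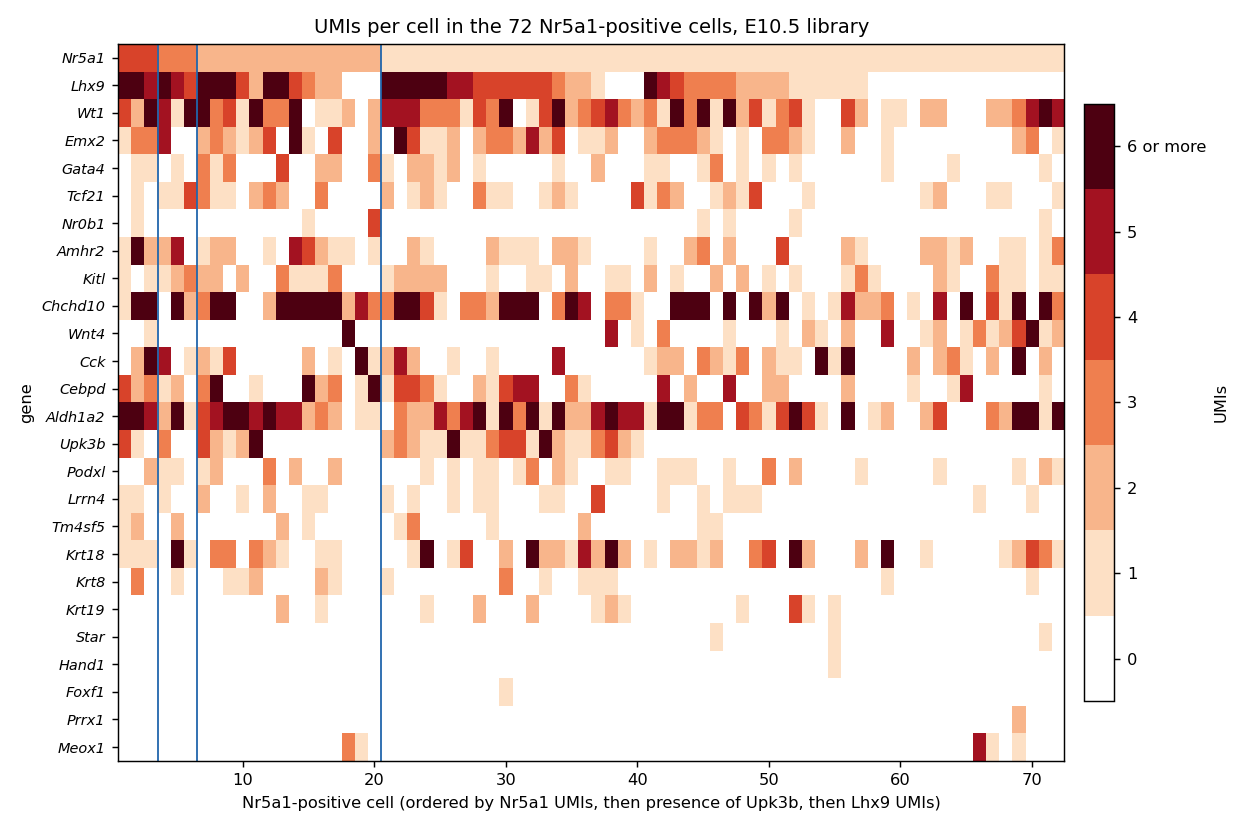
UMIs of 26 genes (rows) in each of the 72 Nr5a1-positive cells (columns), ordered by Nr5a1 UMIs, then by presence of Upk3b, then by Lhx9 UMIs. Blue lines separate cells with 4, 3, 2, and 1 UMI of Nr5a1, and the color gives 0 to 6 or more UMIs. Lhx9 and Wt1 fill most columns (51 and 62 cells), 14 of the 21 cells with Wnt4 lack Lhx9, and Hand1, Foxf1, and Prrx1 each have UMIs in 1 cell.

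Cells with few of these 4 regulators had another makeup in several genes that were not used to divide them. The 16 cells with none or 1 of the 4 had a median of 8044 UMIs, against 10724 in the 43 cells with 3 or 4, so depth moved with the division and its part was not tested. Wnt4 had a UMI in 9 of the 16 cells (135 CPM, 80.3 to 214) and in 6 of the 43 (30.5 CPM, 16.7 to 51.2). Smim1 was found in 6 of 16 and 38 of 43 cells, Myl7 in 0 of 16 and 24 of 43, Serpina3g in 0 of 16 and 18 of 43, Krt8 in 0 of 16 and 13 of 43, and Hoxd9 in 3 of 16 and 30 of 43. Amhr2 was found in 6 of 16 (67.7 CPM) and 25 of 43 (115 CPM), with intervals that overlapped, and Nr5a1 was at 135 and 146 CPM. Of the 16 cells, 3 had UMIs of 2 markers of another class, against 2 of the 43. Cck was at 248 CPM (171 to 349) in the 16 cells and 137 CPM (105 to 176) in the 43, Dlk1 at 1400 CPM (1206 to 1616) and 1008 CPM (919 to 1105), and Crabp1, with 11 of its 12 UMIs in the 16 cells from 1 cell, at 90.3 and 8.71 CPM. Meox1, a marker of sclerotome in the lists used here, had 10 of its 11 UMIs in 4 of the 16 cells (75.2 CPM, 36.1 to 138) and none in the 43. A single cell among the 16 gave 5 of these UMIs. In the 13 cells with 2 of the 4 regulators, Wnt4 was at 163 CPM (98.1 to 254). Smim1 was at 292, Myl7 at 163, Dlk1 at 1167, and Meox1 at 8.58 CPM in these 13 cells. Smim1, Myl7, Serpina3g, and Hoxd9 were thus scarcer in the 16 cells than in the 43. Wnt4, Dlk1, and, through 4 cells, Meox1 were more abundant. The part of cells of another type in this was not tested.

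A like division followed Upk3b, which was not used to choose the Nr5a1-positive cells. It overlaps the division by the 4 regulators, of which Lhx9 is 1, and is not independent of it. Of the 43 cells with 3 or 4 regulators, 22 had a Upk3b UMI. Of the 16 cells with none or 1, 2 had it. The 28 cells with Upk3b had Lhx9 at 472 CPM (397 to 557), with UMIs in 25 cells, against 211 CPM (169 to 260) in 26 of the 44 cells without it. Hoxd9 was at 192 against 77.7 CPM, Myl7 at 212 against 92.2 CPM, Serpina3g at 115 against 38.8 CPM, and Smim1 at 293 against 177 CPM, with intervals that did not overlap. Wnt4 went the other way, at 20.2 CPM (7.42 to 44.03) in 2 of the 28 cells and 109 CPM (79.7 to 146) in 19 of the 44, and so did Dlk1, at 775 against 1347 CPM. Cck was at 101 against 202 CPM and Runx1t1 had UMIs in 1 of 28 and 10 of 44 cells. The marker Meox1 moved with this division too, with no UMI in the 28 cells and all 11 (26.7 CPM, 13.3 to 47.8) in 5 of the 44. Of these UMIs, 45.5% came from 1 cell, and the part of Meox1 was not tested. Nr5a1 (138 and 146 CPM), Amhr2 (91.0 and 121 CPM), Kitl (80.9 and 94.7 CPM), Gata4 (67.4 and 60.7 CPM), and Tcf21 (94.4 and 82.5 CPM) differed by less than their intervals. The cells with Upk3b had a median of 10657.5 UMIs and those without it 8676.5.

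**Figure D4:**
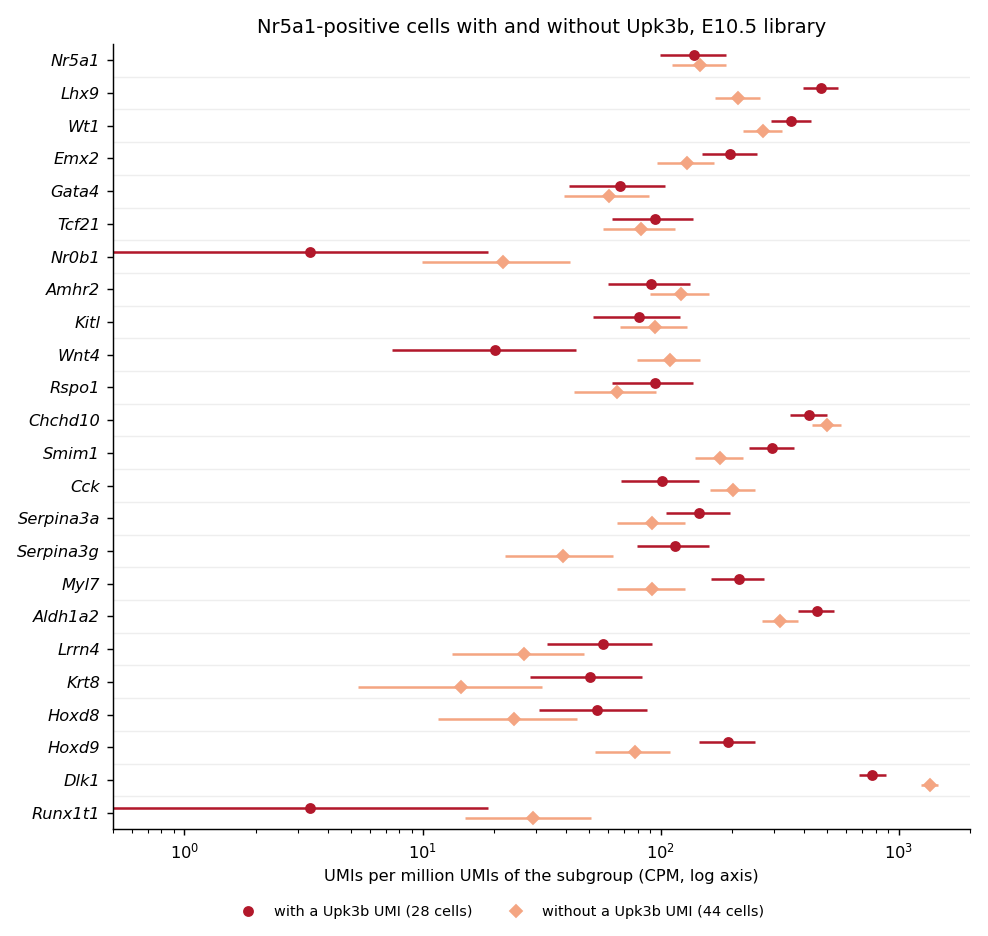
Level of 24 genes in the Nr5a1-positive cells with a Upk3b UMI (red circles, 28 cells) and without one (orange diamonds, 44 cells), in CPM of each subgroup (log axis), with 95% Poisson intervals that end at the left edge where they run below 0.5 CPM. Lhx9 stands at 472 and 211 CPM, Wnt4 at 20.2 and 109 CPM, and Nr5a1 at 138 and 146 CPM.

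The 20 cells with 2 or more Nr5a1 UMIs were deeper than the 52 cells with 1 (medians of 11745 and 8805 UMIs), and the division uses the gene of the rule, so the values are only set side by side. Lhx9 was at 458 CPM in the 20 cells and 255 CPM in the 52, Amhr2 at 159 and 85.1 CPM, Serpina3a at 203 and 72.7 CPM, Akr1b8 at 149.8 and 60.2 CPM, and Gata4 at 92.5 and 49.8 CPM. Wt1 (299.7 and 307 CPM), Aldh1a2 (375 and 374 CPM), and Cck (159 and 160 CPM) were level, whereas Wnt4 was at 30.9 and 91.3 CPM and Hoxc9 at 30.9 and 95.5 CPM. The intervals of Lhx9, Serpina3a, Akr1b8, Wnt4, and Hoxc9 did not overlap, whereas those of Amhr2 and Gata4 did.

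Nr5a1-positive cells were more common in the later libraries. Of 2101 cells at E11.5 they made 34.7%, of 2764 cells at E12.5 31.9%, and of the 2285 D6 cells, which had been enriched for the Nr5a1 reporter, 29.1%. After thinning to 3000 UMIs these shares were 15.7%, 12.55%, and 23.5%, against 0.773% at E10.5. Endothelial cells, which should lack the gene, had an Nr5a1 UMI in 18 of 78 E11.5 cells (23.1%, or 5.05% after thinning), in 6 of 65 E12.5 cells (9.23%, or 1.76%), and in 3 of 17 D6 cells (17.6%, or 7.77%), which gives the background beside the later shares. With 1 library for each stage, stage cannot be told apart from library or, at E10.5, from the dissection that left dorsal mesenchyme on. The D6 library differed from the gonad libraries in kit, strain, and sorting as well, and these cannot be told apart either.

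Within the Nr5a1-positive cells, genes of the coelomic epithelium and of steroidogenesis did not all follow 1 order over the libraries. In the order E10.5, E11.5, E12.5, D6, a Upk3b UMI was present in 38.9%, 14.4%, 7.93%, and 9.04% of them. Aldh1a2 was at 374 CPM at E10.5 and between 47.4 and 50.6 CPM in the other libraries, Krt18 at 165 CPM against 12.0 to 50.9 CPM, and Dlk1 at 1108 CPM against 145 to 384 CPM. Krt8, by contrast, was at 29.6, 43.0, 57.0, and 18.9 CPM, Krt7 at 1.41, 22.5, 18.9, and 6.23 CPM, and Podxl at 59.3, 44.3, 18.3, and 91.6 CPM in the order above. Cck (159.5 CPM) and Serpina3g (70.6 CPM) were also higher at E10.5, at 14.6 to 30.0 CPM and 1.41 to 6.47 CPM in the others. Among the regulators, Lhx9 was at 320.3, 178, 158, and 91.1 CPM in the same order, and Emx2 at 157, 68.6, 45.3, and 80.5 CPM. Wt1 (305, 309.9, 231, and 232 CPM), Amhr2 (109, 143, 148, and 144 CPM), and Chchd10 (466, 545, 892, and 494 CPM) were present in all of them.

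Gata4 was at 63.5 CPM at E10.5 and 123 to 170 CPM in the other libraries, and Zfpm2, which encodes its cofactor, at 1.41 CPM and 20.2 to 88.7 CPM. Sox9 was at 25.4, 419.8, 232, and 46.5 CPM in the 4 libraries. Amh was at 0, 47.9, 472, and 89.2 CPM and Ptgds, a prostaglandin synthase of Sertoli cells, at 0, 175, 657, and 114 CPM, where 0 allows up to 4.23 CPM. Star was at 4.23, 16.9, 14.6, and 315 CPM and Cyp11a1 at 1.41, 13.0, 3.92, and 408 CPM. Fdx1 (74.8, 68.2, 75.3, and 531 CPM), Hsd3b1 (9.88, 11.9, 10.9, and 110.5 CPM), and Scarb1 (29.6, 30.8, 45.6, and 36.7 CPM) were at similar levels in the 3 gonad libraries, and Mc2r was at 9.88, 1.71, 5.97, and 49.9 CPM. At E10.5, Sox9, Amh, Ptgds, Star, and Cyp11a1 were thus each lowest of the 4 libraries, although the interval of Cyp11a1 reached 7.86 CPM.

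**Figure D5:**
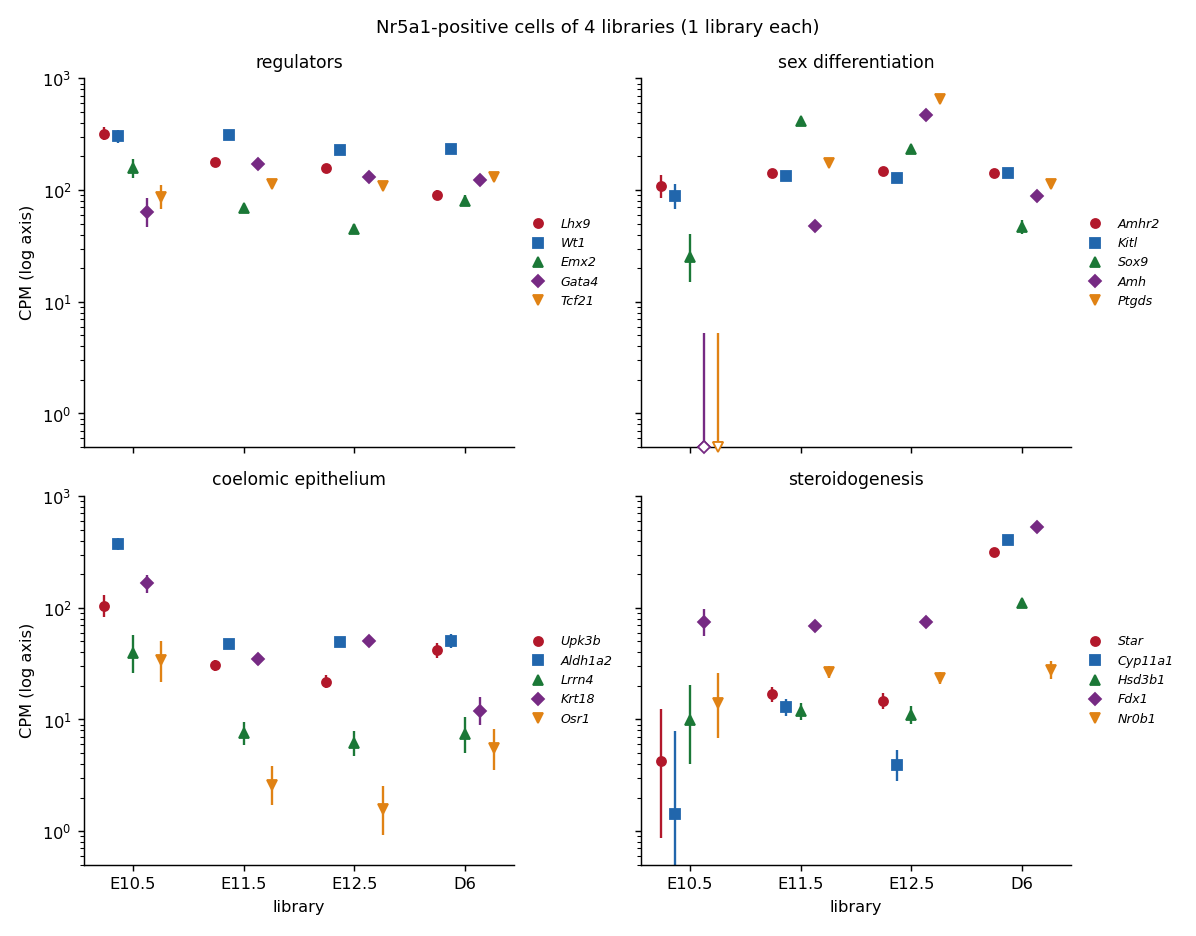
Level of 20 genes in the Nr5a1-positive cells of the 4 libraries (72, 730, 883, and 664 cells from left to right), in CPM of these cells (log axis), with 95% Poisson intervals that are cut at 0.5 CPM. Open symbols at the axis mark genes with no UMI. Amh and Ptgds have none at E10.5 and reach 472 and 657 CPM at E12.5, whereas Amhr2 stays between 109 and 148 CPM.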

How the data were processed

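The authors mapped the reads of 4 libraries to mm10 with Cell Ranger and deposited UMI counts per gene and cell without normalization. The processing notes name version 3.0.2 and the file headers 6.0.0. The deposited E10.5 matrix held 40199985 UMIs in 4473 cells and the cells kept held 32508523 UMIs in 3837. Kept cells of the E11.5 library numbered 2101 (24625441 UMIs), those of E12.5 2764 (34173977), and those of D6 2285 (11906360).

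Cells with more than 1000 and fewer than 4000 genes and less than 10% of UMIs from 13 mitochondrial genes were kept at E10.5, as the methods state, and with the limits stated for the others (E11.5: 500, 5000, and 20%, E12.5: 2000, 5000, and 8%, D6: 1000, 4000, and 12%). UMIs were summed per group and scaled to CPM, with 10 CPM added before log2. With 1 library per stage, no test was made. Shares after thinning are hypergeometric expectations. A cell carried a class when it had UMIs of at least 3 of its markers (11 classes). Doublets were scored with Scrublet in scanpy 1.11.5, left in, and removed as an alternative at an expected 0.8% per 1000 cells. TMM factors of edgeR 4.0.16 (R 4.3.3) were used only as an alternative scaling. Scripts ran in Python 3.11.15 with matplotlib 3.10.9, pandas 2.3.3, scipy 1.17.1, and numpy 2.4.6, and the ratio step was tested on simulated data. Positions were taken from the GENCODE annotation of GRCm38.

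Genes named are members of 14 lists and, per comparison and direction, the 12 with the largest log2 ratio among those with at least 50 CPM and a UMI in at least 10% of cells of the higher group. A few genes that the rule or the lists would name are not reported here. The division by the 4 regulators and the promoter motif were chosen after the values were seen. The members and lists were chosen with earlier results of these data known. For the ratios, 10 alternatives were planned and 1 was added, and the closing section gives their effect. Columns with the authors' own comparisons were not present in the matrices.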

Additional observations from a re-analysis of the deposited data

Results flagged for a closer look

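Barcodes outside the limits on genes and mitochondrial UMIs, which enter no comparison, held Nr5a1 as well, and drew attention because this signal lay in cells left out. Of 636 such barcodes, 12 had an Nr5a1 UMI (1.89%), against 1.88% of the cells inside. Of the 12, 10 were among 352 barcodes with 4000 or more genes (2.84%), 2 among 272 with 1000 or fewer, and 1 among 107 with 10% or more mitochondrial UMIs, so that 1 barcode failed on more than 1 count. Lhx9 had a UMI in 10 of the 12, Wt1 in 11, Emx2 in 8, Amhr2 in 6, and Upk3b in 9, at a median of 15810.5 UMIs, and 0 of the 12 carried markers of another class.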

How the results depend on the processing

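The share of cells with Nr5a1 at E10.5 was 0.521% when 2 UMIs were required, 0.773% after thinning, and 2.62% without cells that carried markers of another class. It was between 1.88% and 1.96% without limits on cells, without the upper limit on genes, or without the highest doublet scores. Thinning gave 15.7% for the E11.5 library, 12.55% for E12.5, and 23.5% for D6, and the E10.5 limits in every library gave 28.8 to 35.9% for these 3. With the E10.5 limits, an Nr5a1 UMI was found in 9 of 39 endothelial cells at E11.5, 0 of 37 at E12.5, and 3 of 17 at D6. The counts of genes higher and lower than in cells with neither gene and higher and lower than in Upk3b-positive cells (97, 60, 52, and 35) were 161, 147, 92, and 84 with a minimum of 20 CPM, and 183, 212, 111, and 124 with no filter on low levels, where more genes are tested. With at least 2 UMIs of Nr5a1, which leaves 20 cells, 146 genes were higher than in cells with neither gene, 97 higher and 75 lower than in Upk3b-positive cells. With only the 28 Nr5a1-positive cells that had Upk3b, an alternative chosen after seeing the data, 54 genes were lower than in Upk3b-positive cells, and the log2 ratio of Wnt4 to cells with neither gene was −0.011 in place of 1.43 (0.42 with at least 2 UMIs). The other counts stayed within 1.5 times of their values. Of 86 log2 ratios of named genes past 2-fold, 6 came under 2-fold without cells carrying markers of another class (Cdkn1a, Gadd45g, Hba-x, Hbb-y, Krt8, and Rspo1), 3 with Upk3b required (Wnt4, Gadd45g −0.52, Krt8 −0.40), 2 with 2 UMIs of Nr5a1 (Wnt4, Krt8 −0.45), 2 without cell limits (Krt8 −0.96, Tagln −0.89), 1 with matched depths (Krt8 −0.76), 1 without the highest doublet scores (Gadd45g −0.98), and 0 under the remaining 5 settings. TMM factors moved the median of all genes from 0.042 to −0.058 and from −0.007 to −0.051. With 72 cells, a gene without a UMI can be at up to 4.23 CPM. No paired analysis was possible because each stage is 1 library and the result comes from no test.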
